A study of Mus musculus with 6 samples.

Results

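The baseline transcriptome of wild-type (WT) dental pulp was described from 3 of the 6 sequenced samples of the series, those labeled WT. Members were chosen by genotype label alone, and carry the replicate numbers 2, 4 and 5. All 3 came from untreated C57BL/6 mice aged 3 months, and the animals of the study were male. Paired-end Illumina sequencing was done on RNA from independent biological samples. Molars are named in the labels, with RNA purified on columns, but the study's methods name incisors and TRIzol, so the tooth is uncertain. The 3 remaining samples, from Mmp13-/- mice, were not used here.

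Dental pulp is the soft connective tissue in the core of the tooth, with fibroblasts, vessels, nerves and resident immune cells. Odontoblasts line its border and secrete dentin, a matrix of type I collagen that is mineralized with the help of acidic phosphoproteins such as dentin sialophosphoprotein. Ameloblasts, which make enamel, are epithelial cells on the outer face of the forming tooth. In mice the incisor grows throughout life and keeps its ameloblasts, while the molar has lost them by the time it erupts.

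Between 28442936 and 29980236 estimated counts were deposited per sample over 53342 genes of 42 annotated types. Levels are given as CPM, the count of a gene scaled to a total of 1000000 counts per sample. A floor of 3 counts stood at 0.1001 to 0.1055 CPM. A mean of at least 1 CPM, worth 28.44 to 29.98 counts, was reached by 17824 genes, or 33.4% of the table, and by 14332 of the 21950 protein-coding genes, or 65.3%. No count in any of the 3 samples was found for 18184 genes. Levels of different genes are compared per kilobase of exon (CPM per kb), since a longer transcript yields more reads, and where genes are ranked by CPM the ranking is of counts. Y-linked Ddx3y, Eif2s3y, Kdm5d and Uty were between 10.7 and 23.1 CPM in the 3 samples, and Xist, the RNA of the inactive X chromosome, was between 0.793 and 1.13 CPM. Because only 1 group was analyzed, values carry the SD over n = 3 samples and no test between groups was made. Divided by its degrees of freedom, the chi-square between pairs of samples was 24.2 to 46.3, where counting error alone gives a value near 1.

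Type I and type III collagen and the contractile proteins of fast skeletal muscle were the leading protein-coding transcripts of the tissue labeled dental pulp. By CPM, 9 of the 20 highest genes belonged to a list of 28 skeletal muscle genes and 3 to the fibrillar collagens. Per kb, 9 of the 20 highest protein-coding genes were again muscle genes, 3 were fibrillar collagens and 3 were keratins. Of the 20 highest by CPM, 12 were also among the 20 highest coding genes per kb. Counts were concentrated in few genes: the highest gene held 5.52% ± 0.394 of all counts (SD, n = 3), the highest 10 held 26.2% ± 0.796, the highest 100 held 42.2% ± 1.01 and the highest 1000 held 62.5% ± 0.407.

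Ttn, which encodes titin, the giant spring protein of the sarcomere (chr2:76703980-76982547, GRCm38), was the highest gene at 59532, 51877 and 54058 CPM in WT samples 2, 4 and 5. Its rank rested on its length: per kb it stood at 472 CPM per kb ± 33.8 and ranked 34 among coding genes. Col1a1, the α1 chain of type I collagen (chr11:94936224-94953042), was the highest coding gene per kb at 6160, 6282 and 5196 CPM per kb. Acta1, skeletal muscle α-actin (chr8:123891769-123894751), followed at 5581, 5369 and 4981 CPM per kb. Their means differed by less than the SD of Col1a1, which was 595 CPM per kb. Col1a1 and Acta1 were lowest in WT sample 5 and Ttn in WT sample 4, and the 3 samples of each gene lay within 1.21-fold of each other.

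**Figure D1:**
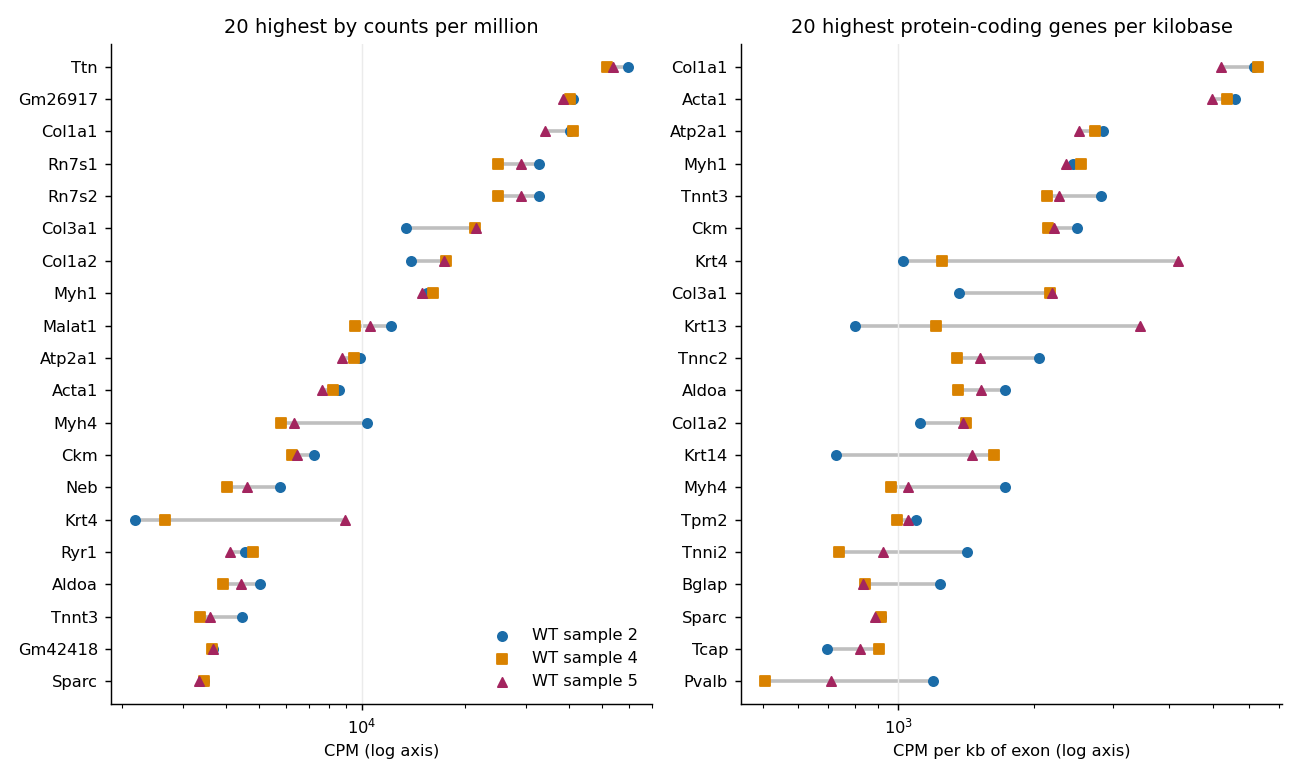
The left panel plots the 20 genes with the highest mean CPM and the right panel the 20 protein-coding genes with the highest mean CPM per kb of exon, both on log axes. Each symbol is 1 WT sample and each gray line spans the 3 samples. Krt4 and Krt13 span 4.08-fold and 4.28-fold with WT sample 5 highest, whereas the samples lie close together for Col1a1, Acta1 and Sparc.

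Protein-coding genes took 85.3% ± 1.04 of the counts. Their share was 84.2% in WT sample 2 (95% Wilson interval 84.14 to 84.17), 86.2% in WT sample 4 (86.20 to 86.23) and 85.4% in WT sample 5 (85.38 to 85.41). These intervals cover counting error only. Genes of the class misc_RNA took 6.27% ± 0.841 and lincRNA genes 6.18% ± 0.186, and no other class passed 1%. Both were carried by few genes, since without the 10 most abundant genes misc_RNA fell to 0.652% and lincRNA to 1.48%. Antisense genes took 0.417% ± 0.0111, and processed pseudogenes 0.218% ± 0.00947.

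Most of the misc_RNA counts came from Rn7s1 and Rn7s2, near-identical copies of the 7SL RNA of the signal recognition particle. Rn7s1 stood at 32805, 24984 and 29050 CPM and Rn7s2 at 32742, 24974 and 29013 CPM in WT samples 2, 4 and 5. The ratio of the pair was 1.0004 to 1.0019, so reads were divided evenly between them and the level of either copy is uncertain. Rn7sk, an RNA that holds the elongation factor P-TEFb inactive, followed at 2302, 1797 and 2390 CPM. WT sample 4 was lowest for all 3 of these RNAs. Rpph1, the RNA of ribonuclease P, stood at 1816, 1750 and 2435 CPM. All 4 are RNA polymerase III products without a poly(A) tail, and the labels speak of isolated mRNA.

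Among lincRNA genes, Gm26917 was the highest at 41263, 40507 and 38652 CPM. It lies at chr17:39843013-39846341, 11 bases before the gene CT010467.1, which is annotated as ribosomal RNA and had 2393, 2149 and 1487 CPM. Gm42418 at chr17:39846958-39848788 lies inside CT010467.1, and stood at 3683, 3643 and 3672 CPM. Gm42418 was among the 10 least variable of the abundant genes, while CT010467.1 was lowest in WT sample 5. Malat1, a nuclear long RNA, stood at 12146, 9550 and 10527 CPM. Reads of overlapping genes cannot be told apart without strand, which is not stated.

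In the antisense class, Kcnq1ot1, the imprinted transcript across Kcnq1, had the most counts at 295, 220 and 213 CPM, but only 2.61 CPM per kb. Myhas, which runs across the fast myosin cluster on chromosome 11 and overlaps Myh1, stood at 135, 153 and 136 CPM, or 69.9 CPM per kb, with its reads open to the same ambiguity. No gene whose symbol marks a mitochondrial transcript was in the table.

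Skeletal muscle genes held 145030, 125364 and 127057 CPM in WT samples 2, 4 and 5, or 13.2% ± 1.09 of all counts. Of the 28 genes in the list, 27 reached 1 CPM, with a median of 1541 CPM. Without Ttn the list still summed to 85498, 73487 and 72999 CPM, so this signal was not the property of 1 gene. These levels go against the label as a description of pulp alone, since striated muscle is not a component of pulp, and where the muscle RNA came from was not tested. In bulk RNA, fewer cells of a type and less RNA per cell cannot be told apart.

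The muscle RNA was of the fast type. Myh1, the heavy chain of IIX fibers, led at 15516, 16128 and 14943 CPM, and Myh4, that of IIB fibers, stood at 10373, 5786 and 6335 CPM. Myh2, of IIA fibers, stood at 900, 2030 and 2213 CPM. WT sample 2 was therefore highest for Myh4 and lowest for Myh2, and the ratio of Myh4 to Myh2 per kb was 13.7 there against 3.38 and 3.40 in WT samples 4 and 5. Myh7, the slow heavy chain, was only at 4.39, 7.30 and 8.48 CPM.

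Troponin C showed the same contrast: Tnnc2, the fast isoform, was at 1644 CPM per kb ± 368, and Tnnc1, the slow and cardiac isoform, was at 0.746 CPM per kb. Myh8, the perinatal heavy chain, reached 581, 1104 and 902 CPM, and Myh3, the embryonic chain, 6.27, 12.2 and 12.9 CPM (both chosen after their values were seen). Atp2a1, the calcium pump of fast fibers, stood at 2699 CPM per kb ± 164 and Ckm, muscle creatine kinase, at 2285 CPM per kb ± 182. Of the 27 muscle genes at 1 CPM, 4 varied at least 2-fold among the samples, or 14.8%, against 4.89% of all genes at 1 CPM. Pvalb, a calcium buffer of fast fibers, stood at 1243, 528 and 738 CPM, and Mylpf, a fast regulatory light chain, at 680, 267 and 390 CPM. Myl1 was at 953, 450 and 649 CPM, and the fourth was Myh2. Pvalb, Mylpf and Myl1 were highest in WT sample 2 and lowest in WT sample 4.

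The bases before the start of 3 leading muscle genes are shown because these genes were abundant and even in every sample. They are the 60 bases that end just before the annotated RefSeq start, 5′ to 3′ on the strand of the gene, in the build GRCm38.p6. Capitals mark the letters TATAA, searched for on both strands, which were present in 7.24% of the 32851 windows of this length in the table. Acta1 is on the minus strand at chr8:123894776-123894835, Ckm on the plus strand at chr7:19411034-19411093 and Ttn on the minus strand at chr2:76982548-76982607.
Acta1: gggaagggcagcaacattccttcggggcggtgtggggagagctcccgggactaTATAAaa
Ckm: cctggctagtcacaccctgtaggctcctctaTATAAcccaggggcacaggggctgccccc
Ttn: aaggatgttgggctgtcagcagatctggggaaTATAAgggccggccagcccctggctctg
All 3 windows hold the letters once, beginning 7, 29 and 28 bases before the start of Acta1, Ckm and Ttn. These 3 were picked by hand. Of the 28 genes in the muscle list, 22 had a window, and some had several. Of these 26 windows, 6 held the letters (23.1%), and 4.10% of the windows of protein-coding genes at 1 CPM did.

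Genes of odontoblasts and of mineralizing matrix were present throughout. All 25 genes of the odontoblast list reached 1 CPM, with a median of 84.5 CPM. Together they held 59177, 61958 and 54590 CPM in WT samples 2, 4 and 5, and 4854, 3123 and 3167 CPM once Col1a1 and Col1a2 were left out. Of the 25, 4 varied at least 2-fold, and all 4 were highest in WT sample 2 and lowest in WT sample 4. Of all genes at 1 CPM, 1.91% varied so with WT sample 2 highest and 1.28% with WT sample 4 lowest.

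Dspp, which encodes dentin sialophosphoprotein (chr5:104170712-104180127), stood at 1590, 512 and 698 CPM, a range of 3.10-fold. The fold range is the highest over the lowest sample after 0.5 CPM was added to each. Phex, an endopeptidase of phosphate metabolism, ran from 152 CPM in WT sample 2 to 69.7 CPM in WT sample 4, and Mmp20, enamelysin, from 79.5 to 26.2 CPM. The fourth was Cd24a, a surface glycoprotein, at 54.6, 22.4 and 35.2 CPM.

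The remaining mineralization genes were more even. Dmp1, dentin matrix protein 1, stood at 151, 195 and 180 CPM, so its order among the samples was not that of Dspp. Per kb, the ratio of Dspp to Dmp1 was 6.55 in WT sample 2, 1.64 in WT sample 4 and 2.42 in WT sample 5. Nes, the intermediate filament nestin of odontoblasts, stood at 303, 245 and 201 CPM, and Alpl, tissue-nonspecific alkaline phosphatase, at 361, 322 and 292 CPM. The transcription factors Runx2 and Sp7 stood at 151 and 98.2 CPM on average. Bglap and Bglap2, near-identical osteocalcin genes whose levels are uncertain for that reason, stood at 972 and 642 CPM per kb.

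Bone genes overlapped with these. All 17 genes of the osteoblast and osteocyte list reached 1 CPM, and without Col1a1 they summed to 2615, 2201 and 2063 CPM. Sost, the sclerostin gene that marks osteocytes, stood at 52.4, 70.8 and 61.4 CPM, lowest in WT sample 2. Of 15 osteoclast genes, 11 reached 1 CPM, against 65.3% of all protein-coding genes. The osteoclast list summed to 398, 534 and 477 CPM. Ctsk, the protease cathepsin K, stood at 42.9, 37.9 and 37.2 CPM, and Acp5, tartrate-resistant acid phosphatase, at 25.9, 35.1 and 31.8 CPM. Bone cells are not pulp cells, and what part bone had in these levels was not tested.

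Collagens dominated the matrix. All 11 fibrillar collagen genes reached 1 CPM and together held 74421, 87102 and 79373 CPM. Col1a2, the α2 chain of type I collagen, stood at 1118, 1417 and 1394 CPM per kb, and Col1a1 exceeded it 5.51-fold, 4.43-fold and 3.73-fold in WT samples 2, 4 and 5. The size of this excess depends on the length used. Per kb of the longest transcript in place of all exons, the means were 6507 CPM for Col1a1 and 3043 CPM for Col1a2. Col3a1, the type III chain of pliable tissue, stood at 13423, 21366 and 21562 CPM, lowest in WT sample 2. Col5a2 and Col5a1, chains of the type V collagen that regulates fibril width, stood at 259 and 215 CPM per kb. Col11a2 alone among the 11 varied at least 2-fold (9.09%, against 4.89% of all genes), at 1342, 840 and 657 CPM.

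Sparc, the collagen-binding protein osteonectin, stood at 905 CPM per kb ± 16.2, below Col1a1, Col3a1 and Col1a2 and above the type V chains. Serpinh1, the collagen chaperone HSP47, stood at 295 CPM per kb. All 22 genes that modify or process collagen reached 1 CPM. Of the 22, 1 varied at least 2-fold (4.55%, against 4.89% of all genes), the lysyl hydroxylase gene Plod2 at 75.2, 35.4 and 32.1 CPM. Bgn, biglycan, at 80.5 CPM per kb led the small leucine-rich proteoglycans, ahead of Fmod, fibromodulin, at 60.1 CPM per kb. Dcn, decorin, was at 12.5 CPM per kb. None of the 12 such proteoglycans at 1 CPM and none of the 11 laminins varied at least 2-fold, against 4.89% of all genes, which for lists of this size is near the background.

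**Figure D2:**
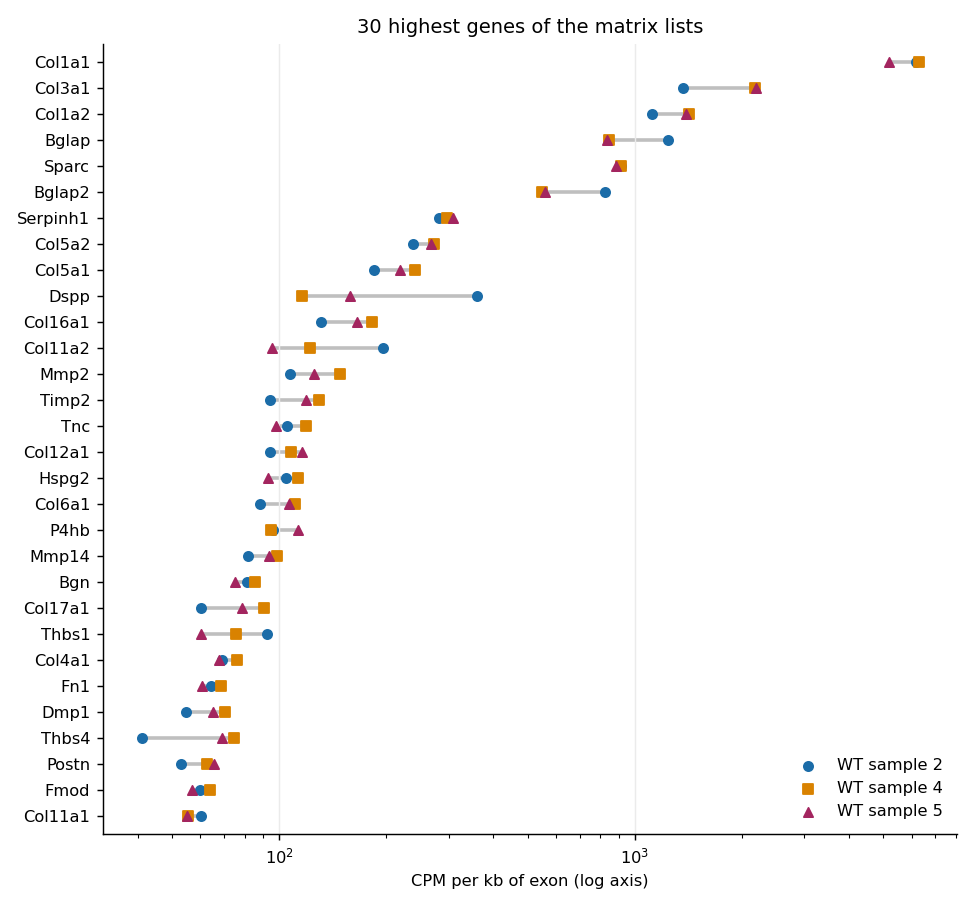
The 30 genes with the highest mean level among the matrix lists are plotted by CPM per kb of exon on a log axis, with 1 symbol per WT sample. The 3 leading collagens, Bglap and Sparc stood at 905 CPM per kb or more on average, and Dspp has the widest gray line.

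Among matrix metalloproteinases, 16 of 21 genes reached 1 CPM, against 65.3% of all protein-coding genes. Mmp2, gelatinase A, led per kb at 127 CPM per kb and stood at 362, 498 and 423 CPM. Mmp14, the membrane-bound activator of Mmp2, followed at 91.3 CPM per kb. Mmp13, collagenase 3, the gene deleted in the other genotype of the series, stood at 35.6, 38.3 and 29.1 CPM, or 12.8 CPM per kb. It differed by 1.31-fold among the samples. Timp2 and Timp3, inhibitors of these proteases, stood at 114 and 35.1 CPM per kb, and Timp1 at 7.65 CPM per kb.

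Genes listed as markers of pulp mesenchyme and fibroblasts were all detected, and which tissue their RNA came from was not tested. Each of the 29 genes in the list of pulp mesenchyme and fibroblast markers reached 1 CPM, with sums of 4360, 4777 and 4266 CPM. Igfbp5, an insulin-like growth factor binding protein, led at 958, 1174 and 1004 CPM, before Tnc, tenascin C, at 815, 922 and 762 CPM. Msx1, a homeobox factor of tooth mesenchyme, stood at 73.2, 67.6 and 48.6 CPM. Of the 29, 2 varied at least 2-fold, or 6.90%, near the 4.89% of all genes at 1 CPM. The 2 were Vcan, the proteoglycan versican, at 62.9, 32.7 and 19.0 CPM, and Gli1, a target of hedgehog signaling. Gli1 stood at 35.0, 17.8 and 13.6 CPM, and both were highest in WT sample 2.

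All 16 endothelial and all 15 mural genes, which mark vessels, reached 1 CPM. None varied at least 2-fold, against 4.89% of all genes at 1 CPM, a share at which few of so small a set would vary. Endothelial sums were 671, 767 and 667 CPM, with Pecam1 at 51.0, 50.1 and 47.1 CPM and Cdh5, vascular cadherin, at 48.5, 57.1 and 42.9 CPM. Mural sums were 2486, 2790 and 2506 CPM, of which Des, shared with the muscle list, was the largest part. Without Des they were 948, 1012 and 927 CPM. Pdgfrb, the pericyte receptor, stood at 190, 221 and 200 CPM and Acta2, smooth muscle actin, at 36.4, 33.9 and 32.8 CPM.

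Neuron genes were nearly absent, although pulp is densely innervated. Of 15, 2 reached 1 CPM, Tubb3 at 16.8, 13.9 and 12.4 CPM and Uchl1 at 2.71, 4.16 and 4.99 CPM. Calca, which encodes the sensory neuropeptide CGRP, was at 0.133, 0.202 and 0.220 CPM. Scn10a, a sodium channel of pain neurons, had no count in any sample. The cell bodies of pulp nerves lie in the trigeminal ganglion, outside the tooth.

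Genes of several immune cell types were detected. Macrophage and monocyte sums were 241, 239 and 246 CPM, a range of 1.03-fold, with 17 of 18 genes at 1 CPM. Single members were less even, as the median log2 fold range was 0.489, against 0.332 over all genes. Of the 17, 6 were highest in WT sample 2, 4 in WT sample 4 and 7 in WT sample 5. Mrc1 stood at 15.5, 9.92 and 11.4 CPM and Itgam at 11.9, 20.4 and 19.0 CPM. Csf1r, their growth factor receptor, stood at 48.2, 51.0 and 46.3 CPM. Genes of dendritic cells and MHC class II summed to 185, 241 and 281 CPM, with Cd74, the invariant chain, at 71.4, 94.0 and 103 CPM. T and NK cell genes were low, with 1 of 15 at 1 CPM, and Cd3e was at 0.302, 0.0672 and 0.0703 CPM, below the floor in WT samples 4 and 5. Of 12 B cell genes 8 reached 1 CPM, near the 65.3% of all protein-coding genes that did. Ebf1 and Ighm carried most of the B cell sum, which was 9.43, 17.4 and 15.3 CPM without them.

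Neutrophil genes were lowest in WT sample 2. All 15 neutrophil genes at 1 CPM had their lowest value there, as did 38% of all genes, and the sums were 236, 431 and 423 CPM. Of the 15, 5 varied at least 2-fold, and 2.28% of all genes did so with WT sample 2 lowest. Ltf, the granule protein lactoferrin, stood at 58.8, 125 and 124 CPM, and Ngp at 28.9, 51.2 and 59.6 CPM. Mpo and Elane, granule enzymes made in marrow precursors, stood at 12.3, 35.4 and 32.0 CPM and at 5.05, 6.66 and 7.97 CPM. Erythroid genes summed to 990, 1100 and 1543 CPM, and 10 of the 11 at 1 CPM were highest in WT sample 5, as were 28.8% of all genes. Their lowest value was in WT sample 2 for 8 and in WT sample 4 for 3, Hbb-bs among them at 108, 88.5 and 162 CPM. Hba-a1 and Hba-a2, near-identical α-globin genes, stood at 331, 396 and 542 CPM and at 312, 361 and 500 CPM. Klf1, a factor of red cell precursors, stood at 2.30, 6.03 and 6.48 CPM.

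Of 12 adipocyte genes 9 reached 1 CPM, against 65.3% of all protein-coding genes. Slc2a4, the insulin-regulated glucose transporter that muscle also uses, stood at 313, 272 and 248 CPM, and Adipoq, adiponectin, which defines fat cells, was at 0.825, 0.625 and 1.38 CPM. All 5 lymphatic genes reached 1 CPM, with Flt4, a VEGF receptor, at 23.1, 29.2 and 22.8 CPM, or 3.04 CPM per kb, and Pdpn, podoplanin, at 7.27 CPM per kb. Of 10 mast cell and basophil genes 3 reached 1 CPM, and without Kit they summed to 4.85, 7.56 and 7.22 CPM. Of 9 platelet genes 7 reached 1 CPM, against 65.3% of all protein-coding genes. Of the 7, 3 varied at least 2-fold, against 4.89% of all genes. Among the 3 was Itga2b at 11.0, 19.3 and 24.3 CPM, lowest in WT sample 2.

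**Figure D3:**
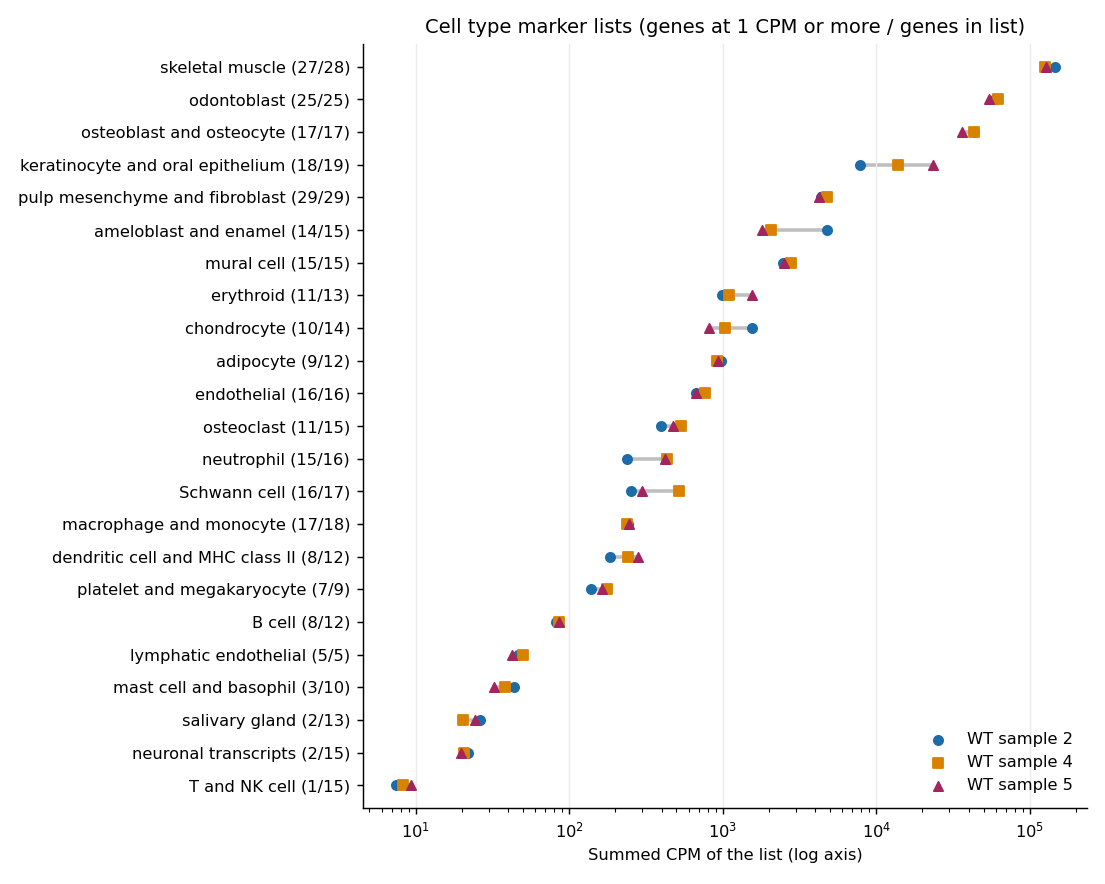
Summed CPM of each cell type list is plotted on a log axis, 1 symbol per WT sample, with the number of genes at 1 CPM over the number in the list beside each name. Lists of oral epithelium, enamel, Schwann cell, chondrocyte and neutrophil genes show the widest gray lines, and the macrophage list the narrowest.

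Over all 17824 genes at 1 CPM, the median fold range among the 3 samples was 1.26, and 872 genes, or 4.89%, varied at least 2-fold. Of all genes, 341 (1.91%) varied so with WT sample 2 highest, 128 (0.718%) with WT sample 4 highest and 403 (2.26%) with WT sample 5 highest. The lowest value was in WT sample 2 for 406 of the 872 (2.28% of all genes), in WT sample 4 for 229 (1.28%) and in WT sample 5 for 237 (1.33%). A range of at least 4-fold was seen for 60. The largest pairwise count was between WT samples 2 and 5, where 602 genes differed at least 2-fold, against 333 between 2 and 4 and 243 between 4 and 5. The median biological coefficient of variation, the spread beyond counting error that edgeR estimates, was 0.183. Without WT sample 2 the count of genes varying at least 2-fold fell to 247, without WT sample 5 to 344 and without WT sample 4 to 613, where a range over fewer samples is narrower by construction.

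Enamel genes set WT sample 2 apart. Of 15 ameloblast and enamel genes, 14 reached 1 CPM, and their sums were 4777, 2051 and 1800 CPM in WT samples 2, 4 and 5. Of the 14, 5 varied at least 2-fold, and all 5 were highest in WT sample 2, a pattern that 1.91% of all genes showed. Amelx, amelogenin, the main protein of forming enamel (chrX:169176114-169187200), stood at 1498, 396 and 135 CPM, an 11.0-fold range. Enam, enamelin, stood at 341, 81.9 and 26.1 CPM, a 12.9-fold range. Ambn, ameloblastin, was at 2038, 760 and 782 CPM. For all 3, WT sample 2 was above the others, but WT samples 4 and 5 were level for Ambn and several-fold apart for Amelx and Enam.

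The other pair was Mmp20, given above, and Acp4, an acid phosphatase, at 49.6, 24.5 and 22.4 CPM. Genes known from the maturation stage of enamel and from the junctional epithelium that seals the gum to the tooth did not share this order. Odam stood at 313, 335 and 311 CPM, Amtn, amelotin, at 167, 107 and 145 CPM and Klk4, the protease of maturing enamel, at 16.4, 19.1 and 20.5 CPM. Without Amelx, Ambn and Enam the list summed to 899, 813 and 857 CPM, a range of 1.11-fold. Per kb, Amelx at 677 and Ambn at 622 CPM per kb led, before Odam at 232 CPM per kb.

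Most epithelial genes were lowest in WT sample 2, and their sum was highest in WT sample 5 through Krt4 and Krt13. Sums of the keratinocyte and oral epithelium list were 7784, 13884 and 23399 CPM, a 3.01-fold range, with 18 of 19 genes at 1 CPM. Of the 18, 16 were lowest in WT sample 2, 12 were highest in WT sample 5 and 6 in WT sample 4. Of all genes, 38% were lowest in WT sample 2, 28.8% highest in WT sample 5 and 35.5% highest in WT sample 4. Of the 18, 11, or 61.1%, varied at least 2-fold, against 4.89% of all genes.

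Krt4 and Krt13, the keratin pair of the upper layers of lining mucosa, stood at 2182, 2669 and 8895 CPM and at 1464, 2209 and 6262 CPM. Their ratio per kb was 1.17 ± 0.126 over the samples, while their fold ranges were 4.08 and 4.28. Krt14, a basal layer keratin, stood at 1277, 2865 and 2561 CPM, and its partner Krt5 at 491, 944 and 848 CPM. Krt10 and Krt1, the pair of cornifying layers, stood at 129, 498 and 319 CPM and at 63.0, 228 and 149 CPM. WT sample 4 was therefore highest for Krt14, Krt5, Krt10 and Krt1, and WT sample 5 for Krt4 and Krt13. Without Krt4 and Krt13 the list summed to 4138, 9006 and 8243 CPM, so that WT sample 4 was highest. Epithelium is not part of pulp, and what part it had in the spread of other genes was not tested.

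The starts of 3 enamel genes that were highest in WT sample 2 and of 2 keratin genes that were lowest there are shown. Each varied at least 2-fold among the samples, but only Amelx and Enam were among the 20 genes with the widest range. Windows, build and marks are as for the muscle genes. Amelx is on the minus strand at chrX:169187210-169187269, Ambn on the plus strand at chr5:88455931-88455990 and Enam on the plus strand at chr5:88487915-88487974. Krt13 is on the minus strand at chr11:100121567-100121626, the first of the starts listed for it, and Krt14 on the minus strand at chr11:100206031-100206090.
Amelx: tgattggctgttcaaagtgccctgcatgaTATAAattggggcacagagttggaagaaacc
Ambn: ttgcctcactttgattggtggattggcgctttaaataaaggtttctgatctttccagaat
Enam: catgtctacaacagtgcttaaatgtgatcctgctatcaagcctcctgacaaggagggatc
Krt13: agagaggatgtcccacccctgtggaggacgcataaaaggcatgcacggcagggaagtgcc
Krt14: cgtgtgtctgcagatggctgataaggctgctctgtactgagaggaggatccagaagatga
Only the Amelx window holds TATAA, beginning 31 bases before the start, so the 3 enamel genes that were highest together do not share these letters here. The genes shown were picked by hand. The letters were in 3 of 11 windows found for the enamel list (27.3%) and 4 of 10 for the keratinocyte and oral epithelium list (40%). They were in 4.10% of the windows of protein-coding genes at 1 CPM. Windows for Col1a1, Dspp and Krt4 were not used here.

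**Figure D4:**
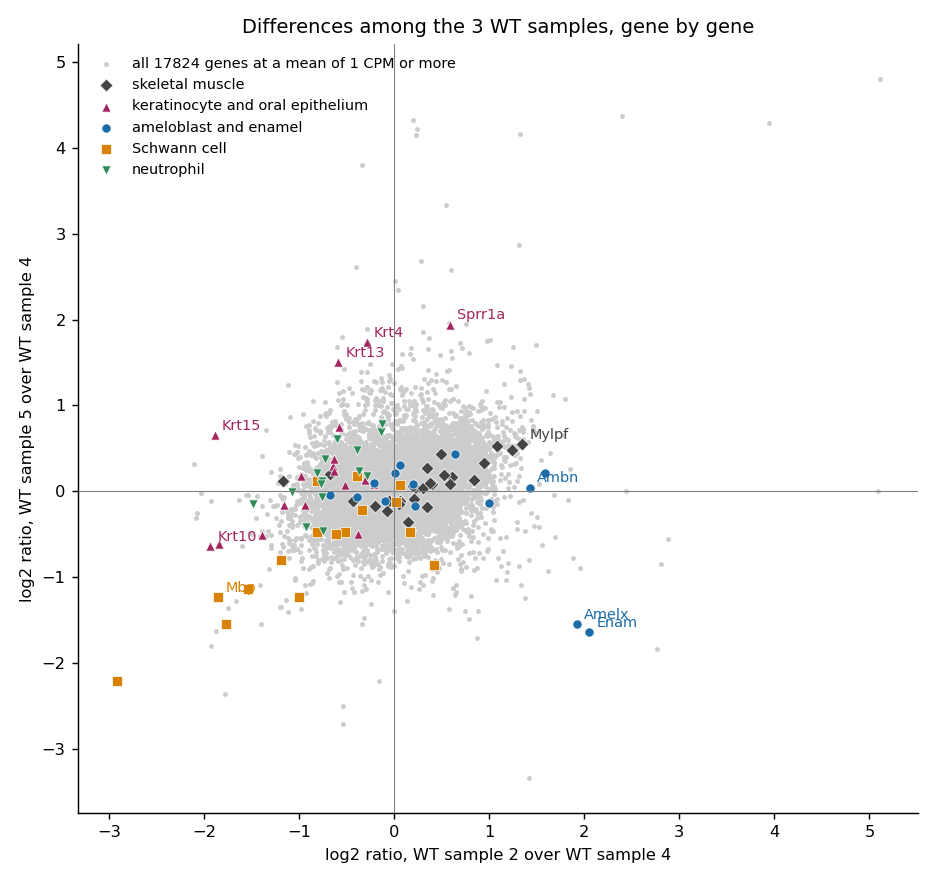
Each point is a gene with a mean of at least 1 CPM, placed by its log2 ratio of WT sample 2 over WT sample 4 (horizontal) and of WT sample 5 over WT sample 4 (vertical), after 0.5 CPM was added. Amelx and Enam lie at the lower right, Krt4 and Krt13 at the upper left, Mbp at the lower left, and most muscle genes near the center.

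Most myelin genes of the Schwann cell list were highest in WT sample 4. Of 17 Schwann cell genes, 16 reached 1 CPM and 7 varied at least 2-fold, against 4.89% of all genes. Of these 7, 6 were highest in WT sample 4, as were 0.718% of all genes. Mbp, myelin basic protein, stood at 27.6, 101 and 42.7 CPM, and Prx, periaxin, at 15.6, 54.3 and 18.3 CPM. Pmp22 was at 29.5, 59.8 and 25.2 CPM. Mal, also a myelin gene of the list, did not share this order, at 14.8, 19.6 and 22.3 CPM.

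Genes of Schwann cells that are not of the myelin sheath differed less. Sox10, their lineage factor, stood at 2.67, 5.06 and 3.51 CPM, and S100b at 4.72, 6.11 and 5.17 CPM. Ngfr, a receptor of immature and non-myelinating Schwann cells, was at 7.54, 6.66 and 4.64 CPM, highest in WT sample 2. Tubb3 of axons did not follow the myelin genes either, as its highest value was in WT sample 2.

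The 20 genes with the widest range, among those with a mean of at least 5 CPM, were highest in WT sample 2 for 10, in WT sample 5 for 9 and in WT sample 4 for 1. Rspo4, a secreted amplifier of Wnt signaling, stood at 55.1, 20.4 and 1.57 CPM, and Shh, the sonic hedgehog ligand of dental epithelium, at 15.9, 1.91 and 0.176 CPM. Both were highest in WT sample 2 and lowest in WT sample 5, as were Amelx and Enam. Papln, papilin, a matrix protein, shared this order at 333, 87.8 and 29.3 CPM, and Chst1, a sulfotransferase, at 43.5, 10.9 and 5.64 CPM.

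Highest in WT sample 5 were Alox15, arachidonate 15-lipoxygenase, at 1.27, 1.04 and 30.3 CPM, and Sprr2a1 and Sprr2a2, overlapping and near-identical cornified envelope genes of uncertain split, at 30.8 and 33.3 CPM there and at most 1.64 CPM in the other samples. Ada, adenosine deaminase, stood at 61.6, 11.3 and 244 CPM. Krt15, a basal keratin, stood at 19.4, 73.4 and 116 CPM. Cfd, the adipocyte serine protease adipsin, stood at 6.04, 2.13 and 18.7 CPM. Some genes were at 0 in whole samples. A530084C06Rik had 16.6 CPM in WT sample 2 and none in the others, and Gm20402 had 7.19 and 9.25 CPM in WT samples 2 and 5 and none in WT sample 4.

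**Figure D5:**
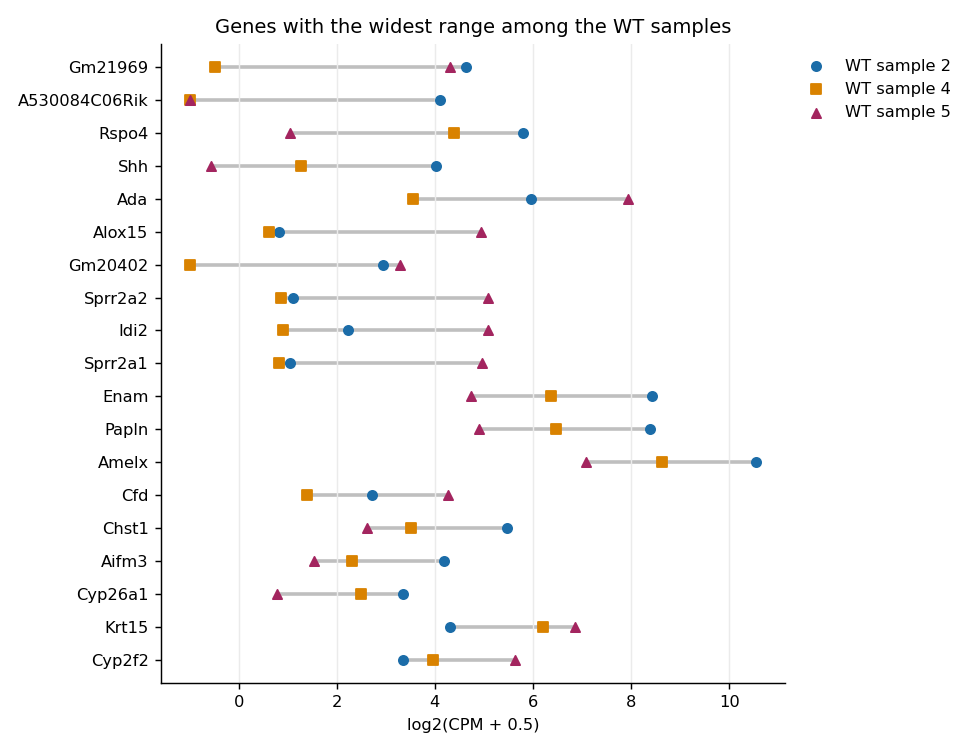
Of the 20 genes with the widest range among the WT samples, 19 are plotted as log2(CPM + 0.5), widest range at the top, 1 symbol per sample. WT sample 2 lies rightmost for Rspo4, Shh, Enam, Papln and Amelx, and WT sample 5 for Ada, Alox15 and the Sprr2a genes.

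At the other end, the 10 genes with the narrowest range among those with a mean of at least 100 CPM differed by at most 1.02-fold. Thrap3, a splicing-associated protein, stood at 152, 153 and 152 CPM. Cs, citrate synthase of the Krebs cycle, stood at 452, 447 and 451 CPM and Atp5g3, a subunit of ATP synthase, at 163, 161 and 163 CPM. Scn4b, a sodium channel subunit, and Vegfa, the vascular growth factor, were in this set too, at 300 and 226 CPM on average.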

How the data were processed

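RNA sequencing of dental pulp from WT mice aged 3 months was analyzed in the 3 samples labeled WT, with groups and replicate numbers taken from the labels. The authors deposited estimated counts per gene, made in Strand NGS from their aligned reads, with fractions in 52.4 to 53.1% of all values, zeros included. Deposited log2 normalized values were not used. The submitters' processing notes name the build mm10 and DESeq. The aligner and the annotation are not given in the sources used here. Every sample column was mapped, with 0 unmapped.

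Estimated counts were scaled to CPM by the sample total. Exon lengths and positions came from GENCODE M21 on GRCm38, matched for 99.8% of genes, and promoter windows from RefSeq tables of GRCm38.p6, which held 9 of 12 genes sought. A gene was detected at a mean of 1 CPM and varied when (highest + 0.5)/(lowest + 0.5) was at least 2. Dispersion was estimated in edgeR 4.0.16 (R 4.3.3) on rounded counts with TMM factors, with DESeq2 1.42.0 as an alternative, and was tested on simulated data. Genes named are the 20 highest by CPM and per kb, the 20 most variable (mean of at least 5 CPM), the 10 least variable (at least 100 CPM), the 3 highest of each class with at least 0.05% of counts, and members of 38 marker lists. Of 559 listed symbols, 557 were found. Some genes under the rule are not reported here. Members and lists were chosen with earlier results of these data known. Wilson intervals (95%) and the floor of 3 counts cover counting error only. Independent samples are stated by the study, but how many animals gave each is not.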

Additional observations from a re-analysis of the deposited data

How the results depend on the processing

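Gene counts, class shares, the share of the 100 most abundant genes, the dispersion and the list sums were computed again under other choices. Single-gene values, ratios and the added families were not. The count of genes at 1 CPM stayed between 16781 and 20232 under all alternatives run. The count of genes varying at least 2-fold, 872, moved most. It was 424 with a minimum mean of 5 CPM, 293 with a minimum of 10 CPM, 1332 with 0.1 CPM added in place of 0.5, 3648 at a range of 1.5-fold and 152 at 3-fold. It ranged from 247 to 613 when 1 sample was left out, lowest without WT sample 2. It was 888 with TMM and 884 with RLE library sizes. The share of counts in protein-coding genes rose to 94.8% without the 10 most abundant genes. Of the 38 list sums, 34 moved by more than the SD between samples when the total was taken without mitochondrial genes and the 10 most abundant genes, and 27 without the muscle list, an alternative chosen after seeing the data. None moved so under TMM or RLE. By symbol no mitochondrial gene was in the table, and both smaller totals raised every list by a nearly even factor. The factor was 1.35 to 1.37 without the 10 genes and 1.14 to 1.17 without the muscle list. Those moves follow from the scale and say nothing of stability. With 1 of 3 samples left out a mean cannot move by that much, so those values say nothing of stability. No paired analysis was possible because only 1 group was analyzed. With 3 samples, no test for single outlying samples was made, and a value below the floor of 0.1001 to 0.1055 CPM cannot be told from 0.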

Other observations

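Gene families chosen after their values were seen extend the description. Of 18 hedgehog genes 17 reached 1 CPM, and 5 of the 17 varied at least 2-fold, against 4.89% of all genes. Ptch1, receptor and target of the pathway, stood at 124, 62.3 and 42.8 CPM in WT samples 2, 4 and 5. Scube1, a secreted protein that binds the ligand, stood at 59.2, 31.9 and 11.8 CPM, and Shh and Gli1 were among the 5 as well. Ptch1, Scube1, Shh and Gli1 were all highest in WT sample 2 and lowest in WT sample 5. Gli3 had the same order over a narrower range, at 71.1, 68.1 and 52.5 CPM, while Smo, the signal transducer, stood at 135, 174 and 138 CPM. Cartilage genes had sums of 1546, 1032 and 813 CPM, mostly Col11a2, and Sox9, the chondrocyte factor also found in dental epithelium, stood at 22.6, 18.0 and 8.95 CPM.

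Cornified envelope families were highest in WT sample 5. Small proline-rich genes summed to 101, 86.9 and 322 CPM and late cornified envelope genes to 107, 115 and 231 CPM. Sprr3 stood at 66.9, 59.6 and 182 CPM, and Lce3a at 20.9, 19.9 and 46.7 CPM. The 54 keratin genes summed to 7599, 14537 and 22952 CPM, with 26 at 1 CPM. Of the 26, 14 varied at least 2-fold, or 53.8%, against 4.89% of all genes. Krt76, a keratin of the palate, was lowest in WT sample 2 at 191 CPM and highest in WT sample 4 at 815 CPM.

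Immediate early genes, which are induced within minutes of a stimulus, summed to 900, 1287 and 1334 CPM, and 18 of the 21 were lowest in WT sample 2, as were 38% of all genes. Fos stood at 13.5, 22.5 and 42.6 CPM and Egr1 at 19.3, 26.9 and 45.7 CPM. Clock genes summed to 842, 1134 and 931 CPM, with Per1 at 47.1, 130 and 104 CPM and Per2 at 11.3, 26.7 and 10.2 CPM. Proliferation genes summed to 396, 331 and 392 CPM with none of 22 varying at least 2-fold, against 4.89% of all genes, and Mki67 stood at 39.2, 36.5 and 53.0 CPM. Of 81 cytoplasmic ribosomal protein genes at 1 CPM, 2 varied at least 2-fold, or 2.47%, against 4.89% of all genes. The family summed to 9677, 8263 and 9730 CPM. Of the 81, 73 were lowest in WT sample 4 and 0 were highest there, against 35.5% of all genes highest in WT sample 4. Among genes of other body regions, 2 of 39 Hox genes, 1 of 1092 odorant receptor genes and 2 of 13 salivary gland genes reached 1 CPM. Hoxd8 stood at 6.14, 5.86 and 3.84 CPM. Heat shock genes summed to 1044, 1168 and 1252 CPM. Of these 11 genes, 1 varied at least 2-fold (9.09%, against 4.89% of all genes), Hspa1b at 34.7, 70.2 and 63.7 CPM. Interferon-stimulated genes were low, with sums of 65.7, 76.9 and 83.3 CPM.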
